A study of Mus musculus with 2 samples.

Results

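The Hox genes of clusters A to D were followed in a list of H3K27me3 regions from mouse rib chondrocytes, the cells that make rib cartilage. The set held 38 genes, taken by gene symbol with earlier results of these data known: 10 of HoxA, 10 of HoxB, 9 of HoxC and 9 of HoxD. The list held 2017 regions and named 922 genes, each region naming the genes within 5000 bp of it, and 49 of the regions named at least 1 of the 38 Hox genes. The chondrocytes came from the ribs of 11 wild-type CD1 mice at postnatal day 2.5, were pooled and kept overnight in DMEM with 5% FCS (as the sample labels give it) on 2 dishes of 10 cm, and no other genotype, treatment or age was compared. Chromatin was pulled down with an antibody to H3K27me3 in 1 library, and 2% of the chromatin was sequenced without pull-down in 1 input library. There were no replicates, so no value below carries an error between samples and no test between genes or clusters was made. Which ribs were taken is not given in the sources used here, and a region marked in some of the cells cannot be told apart from a region marked more weakly in all of them.

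Hox genes encode homeodomain transcription factors that give the body axis, and with it each vertebra and rib, its regional identity. In each cluster the genes lie in the order of their paralog number: low numbers act in the hindbrain and neck, middle numbers in the chest, and high numbers in the lumbar, sacral and tail regions, the limb ends and the urogenital tract. H3K27me3, trimethylated lysine 27 of histone H3, is placed by Polycomb repressive complex 2 (PRC2) and covers silent Hox genes in many tissues, while Hox genes in use are generally free of it.

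A region of the list spanned an annotated 5′ end of a Hox gene for Hoxa10 and Hoxd10, whereas Hoxa9, the neighbour of Hoxa10, had no listed region. The 250 bases before each start are shown for these genes, 5′ to 3′ on the strand of the gene, with every CG dinucleotide in capitals, because CG-rich promoters are the usual sites of PRC2. The sequences are from RefSeq (GRCm38.p6), whose positions differ from those of the list (mm9), and Hoxa10 has more than 1 annotated start.
Hoxa10, chr6:52240855-52241104, minus strand: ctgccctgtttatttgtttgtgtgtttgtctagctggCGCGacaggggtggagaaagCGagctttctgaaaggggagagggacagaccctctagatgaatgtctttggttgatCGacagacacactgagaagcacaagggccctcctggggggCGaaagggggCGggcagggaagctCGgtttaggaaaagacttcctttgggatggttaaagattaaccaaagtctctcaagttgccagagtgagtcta
Hoxa10, chr6:52234940-52235189, minus strand: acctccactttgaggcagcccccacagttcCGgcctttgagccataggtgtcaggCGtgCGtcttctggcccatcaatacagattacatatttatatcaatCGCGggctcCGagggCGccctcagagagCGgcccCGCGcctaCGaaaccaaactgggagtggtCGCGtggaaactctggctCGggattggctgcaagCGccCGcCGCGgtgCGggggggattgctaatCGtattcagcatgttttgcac
Hoxd10, chr2:74691641-74691890, plus strand: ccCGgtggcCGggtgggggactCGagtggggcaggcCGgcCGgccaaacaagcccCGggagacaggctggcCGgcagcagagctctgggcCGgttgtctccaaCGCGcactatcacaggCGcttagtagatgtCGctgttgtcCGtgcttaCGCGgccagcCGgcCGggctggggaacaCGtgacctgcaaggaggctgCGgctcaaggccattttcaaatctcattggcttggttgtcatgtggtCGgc
Hoxa9, chr6:52227371-52227620, minus strand: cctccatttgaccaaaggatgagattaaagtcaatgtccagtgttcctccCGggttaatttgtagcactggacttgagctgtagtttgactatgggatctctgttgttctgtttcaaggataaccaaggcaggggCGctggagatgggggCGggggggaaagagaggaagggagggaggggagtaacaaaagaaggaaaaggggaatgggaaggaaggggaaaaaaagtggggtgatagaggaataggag
These stretches held 7, 20, 20 and 3 CG dinucleotides. Among 32851 RefSeq promoter stretches of the same length the median was 6. At least 7 were found in 46.3% of them, at least 20 in 17.9% and at least 3 in 71.0%. The table of promoters held 22 of the 38 Hox genes (57.9%), so members with and without a region were not compared by promoter sequence. Hoxa9 is 1 of 13 members without a listed region, and whether CG content bears on the regions was not tested.

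Hox clusters also hold miRNA genes that target Hox transcripts, and 5 of them were named by regions. The mature sequences are shown, with the seed (bases 2 to 8) in capitals, because they fall into 2 seed families that lie at matching places in different clusters.
miR-10a-5p (Mir10a, HoxB): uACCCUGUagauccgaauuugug
miR-10b-5p (Mir10b, HoxD): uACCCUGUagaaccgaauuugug
miR-196a-5p (Mir196a-1, HoxB, and Mir196a-2, HoxC): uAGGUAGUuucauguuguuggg
miR-196b-5p (Mir196b, HoxA): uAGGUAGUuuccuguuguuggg
Mir196a-2 was overlapped by the region between Hoxc9 and Hoxc10, with 197 ChIP tags and 10 input tags, a tag being a mapped read. Mir196a-1 was named by 2 regions, of which 1 overlapped it and the other also named Hoxb9, with 161 ChIP and 16 input tags in all. Mir196b lay 3407 bp from a region with 237 ChIP and 31 input tags. Mir10b was named by the 2 regions of Hoxd4, with 199 and 27 tags, and Mir10a by the region of Hoxb4, with 30 and 3 tags. The ratio of ChIP to input tags was 19.7 (95% interval 10.5 to 41.7) in the region over Mir196a-2 in HoxC. It was 7.65 (5.24 to 11.5) in the region 3407 bp from Mir196b in HoxA, and the intervals overlap. Mir615, the other miRNA gene looked for, had no listed region.

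Of the 38 Hox genes, 25 (65.8%) were named by at least 1 region, against 3.9% of 21900 protein-coding RefSeq genes named in the whole list. The other 13 had no listed region: Hoxa2, Hoxa3, Hoxa4, Hoxa5, Hoxa6, Hoxa7, Hoxa9, Hoxb2, Hoxb7, Hoxc4, Hoxc5, Hoxc6 and Hoxc8. Among these, Hoxa2 patterns the second pharyngeal arch, Hoxa3 the thymus and parathyroid, Hoxa5 the lower neck and upper chest, and Hoxa6, Hoxc6 and Hoxc8 act in the rib-bearing thoracic segments. The list kept regions whose smoothed ChIP profile reached a height of about 8, and what lay under that height at these 13 genes cannot be seen in it.

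The clusters differed in which genes were named. HoxD was named throughout (9 of 9 genes), HoxB nearly so (8 of 10), HoxC in 5 of 9 genes and HoxA in 3 of 10. In HoxA the named genes were Hoxa10, Hoxa11 and Hoxa13, and in HoxC they were Hoxc9, Hoxc10, Hoxc11, Hoxc12 and Hoxc13, in each case an unbroken run at the posterior end. In HoxB the exceptions, Hoxb2 and Hoxb7, lay between named genes.

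By paralog group, 15 of 16 genes of groups 9 to 13 were named, and all 12 of groups 10 to 13. Of groups 1 to 8, 10 of 22 were named (45.5%), with 4 of 7 in groups 1 to 3 and 6 of 15 in groups 4 to 8. Both genes of group 1 were named (Hoxb1, Hoxd1), 2 of 3 in group 3, 2 of 4 in group 4, 1 of 3 in group 5, 1 of 3 in group 6, 2 of 3 in group 8 and 3 of 4 in group 9, and neither gene of groups 2 and 7. The named genes of groups 1 to 8 were all in HoxB (6 of 8) and HoxD (4 of 4), and 0 of 6 in HoxA and 0 of 4 in HoxC were named. Neighbouring genes can share a region, so genes are not independent of each other.

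**Figure D1:**
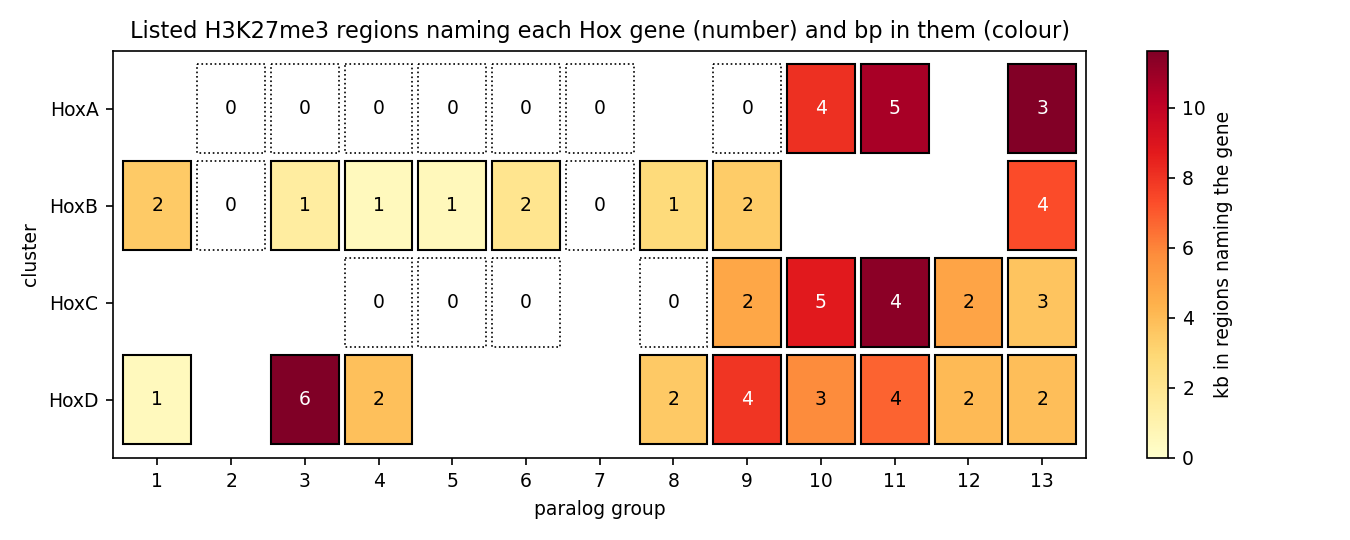
The 38 Hox genes arranged by cluster (rows) and paralog group (columns); the number in a box counts the listed regions that named the gene, and its colour gives the kb in them. Dotted boxes with 0 are the 13 genes without a listed region, empty places hold no gene of the set, and the 12 boxes of groups 10 to 13 all show a number above 0.

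The 49 Hox regions covered 96311 bp and held 5217 ChIP tags for 594 of input, which made the ratio 8.78 (8.07 to 9.58, here and below the 95% Clopper-Pearson interval). The 1968 other regions held 138605 and 18666 tags, a ratio of 7.43 (7.31 to 7.54). The intervals do not overlap, but they treat tags as independent and cover counting error only, and no ratio here takes the sequencing depth into account, since the list lacks the library totals. When only the 21 Hox regions that overlapped a Hox gene they named were taken, the ratio was 7.45 (6.62 to 8.41), and its interval overlapped that of the other regions. By cluster, HoxC had the highest ratio, 11.4 (9.60 to 13.7) from 1588 ChIP and 139 input tags. HoxA had 8.56 (7.19 to 10.3) from 1215 and 142 tags, HoxD 7.77 (6.67 to 9.09) from 1461 and 188 tags, and HoxB 7.62 (6.32 to 9.26) from 953 and 125 tags. The interval of HoxC did not overlap those of HoxB and HoxD, and it overlapped that of HoxA. With only regions that overlapped the gene, HoxC had 10.1 (7.15 to 14.6), HoxB 7.16 (5.60 to 9.28) and HoxD 6.77 (5.68 to 8.12), and the intervals overlapped. With a height of at least 10 they overlapped as well, at 14.8 (10.6 to 21.1) in HoxC, 7.91 (5.75 to 11.1) in HoxB and 11.0 (7.32 to 17.4) in HoxD.

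Input density varied more between the clusters than ChIP density did. ChIP tags per kb were 56.8 in HoxC, 54.7 in HoxA, 52.4 in HoxD and 52.2 in HoxB, while input tags per kb were 4.97, 6.39, 6.75 and 6.85. Over all listed regions the values were 54.2 and 7.26 per kb, and over the Hox regions 54.2 and 6.17. The Hox regions thus had the ChIP density of the whole list and fewer input tags per kb. Regions entered the list only with a ChIP height of about 8 or more, so ChIP density was in part fixed by that limit in every group. By paralog class the ratios were 8.30 (6.79 to 10.2) in groups 1 to 3, 7.70 (6.14 to 9.75) in groups 4 to 8 and 8.97 (8.15 to 9.89) in groups 9 to 13, with overlapping intervals. Within the posterior class the ratio was 8.17 in group 10, 9.01 in group 11, 11.0 in group 12 and 9.30 in group 13.

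**Figure D2:**
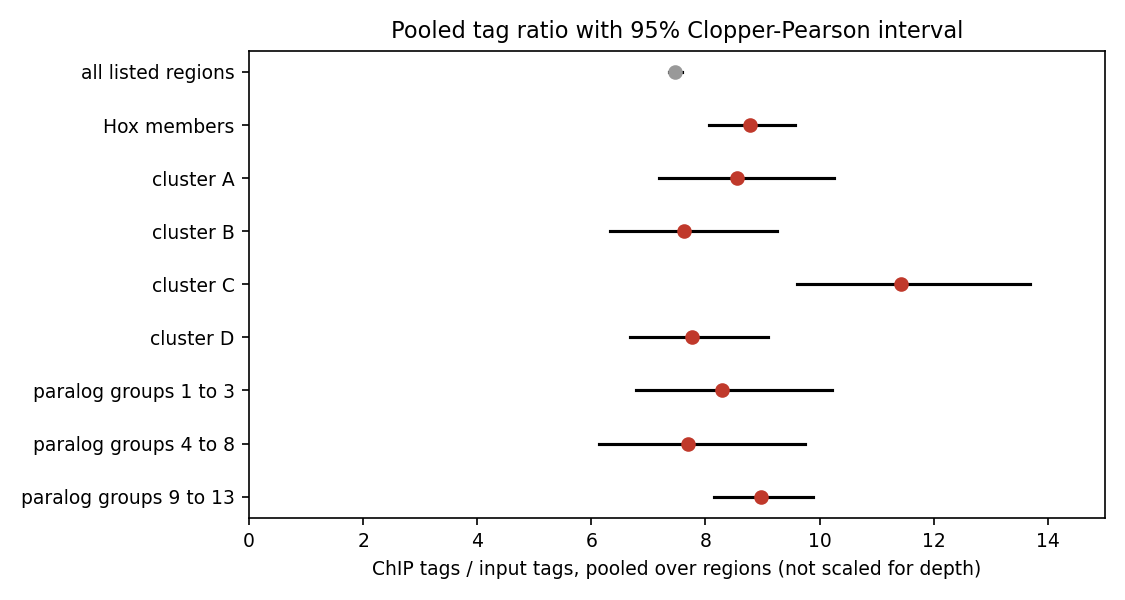
ChIP tags divided by input tags (horizontal axis), pooled over all listed regions (grey), over the 49 Hox regions, by cluster and by paralog class (red), with 95% Clopper-Pearson intervals as lines, which cover counting error only. Cluster C lies farthest to the right at 11.4, and the intervals of the paralog classes overlap.

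Length set the Hox regions apart from the list more than density or height did. Their median length was 1631 bp (490 to 6311 bp), against 1066 bp over all regions, and 19 of 49 (38.8%, 95% interval 25.2 to 53.8) were at least 2000 bp long, against 16.5% of all regions. Their median density was 54.5 ChIP tags per kb (45.2 to 75.2), the same as for all regions (54.5). Their median height was 8.70 against 8.68, where the list kept only heights of about 8 or more. They held a median of 83 ChIP tags (27 to 347) against 56, and at least 100 ChIP tags in 21 of 49 (42.9%) against 18.7%, and at least 50 in 42 of 49 (85.7%) against 58.8%. The authors' ranking placed 9 of 49 (18.4%) among its first 100 regions, against 4.96% of the list, 4 of them in HoxA, 3 in HoxC, 1 in HoxB and 1 in HoxD. A height of at least 10 was reached by 10 of 49 (20.4%), against 13.1%, and 12 of the 38 Hox genes were named by such a region, against 0.708% of protein-coding genes. No Hox region was without input tags (0 of 49), against 5.45% of all regions. HoxA had the longest regions, with a median of 2962 bp, against 1795.5 bp in HoxD, 1481.5 bp in HoxB and 1365 bp in HoxC.

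**Figure D3:**
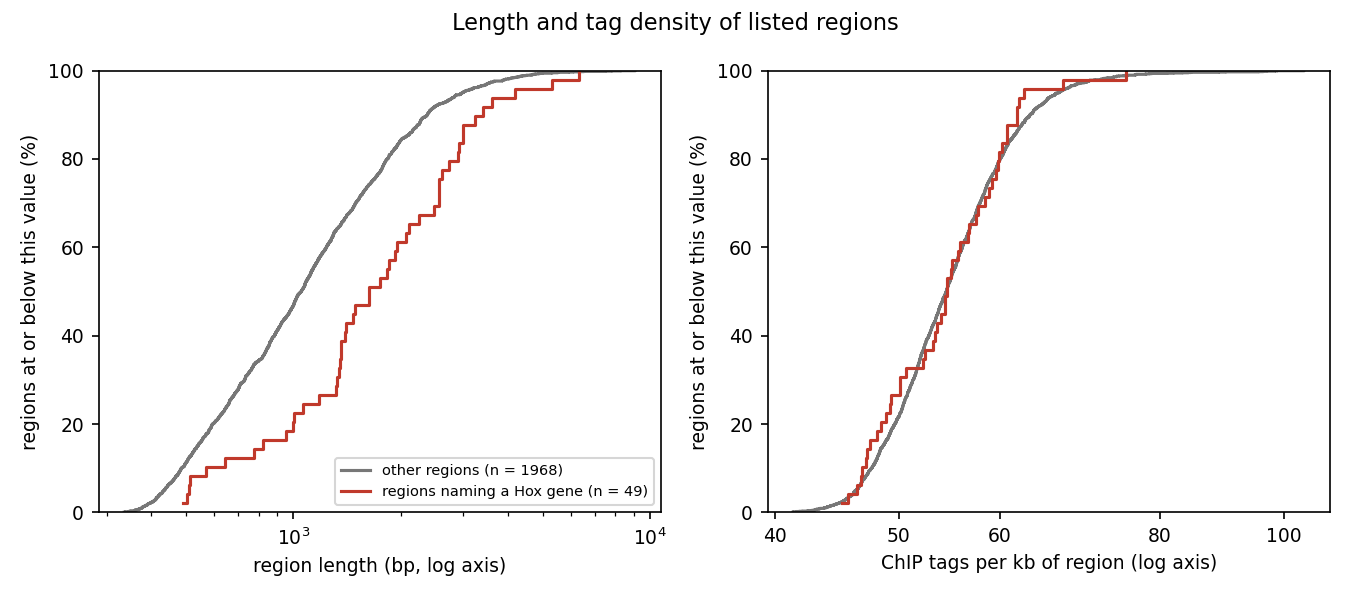
Cumulative share of regions (vertical axes, %) by length in bp (left) and by ChIP tags per kb (right), both on log axes, for the 49 Hox regions in red and the 1968 other regions in grey. The red curve of length lies to the right of the grey over most of its range, with a Hox median of 1631 bp, while the curves of density run together around the Hox median of 54.5 tags per kb.

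In HoxA the listed regions stood at the posterior end alone. Its 8 regions lay within 36875 bp of chromosome 6 (mm9, chr6:52183571-52220446) and covered 60.3% of that span, the highest share of the 4 clusters. Each span runs from the first to the last Hox region, so it is short where only 1 end of a cluster was named. In bp, the Hox regions covered 22232 in HoxA, 27960 in HoxC, 27861 in HoxD and 18258 in HoxB. Hoxa13, which patterns the digits and the genital tract, had the most sequence in regions of HoxA: 11555 bp in 3 regions with 612 ChIP and 69 input tags (8.87, 6.91 to 11.5), all outside the gene and the nearest 899 bp from its 5′ end. Hoxa11, needed for the forearm and the uterus, had 5 regions of 10677 bp with 603 and 73 tags (8.26). Hoxa10, whose paralogs keep lumbar vertebrae free of ribs, had the highest density of HoxA, 57.1 ChIP tags per kb, over 4 regions of 8109 bp with 463 and 59 tags (7.85, 5.98 to 10.5).

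All 4 regions of Hoxa10 overlapped the gene and also named Hoxa11. They held 237, 27, 31 and 168 ChIP tags and 31, 6, 2 and 20 input tags in the order of their positions, and the outer pair, of 4180 and 2924 bp, each spanned an annotated 5′ end of Hoxa10. From the outermost of these regions to the next listed region on the side of the low paralog numbers lay 461794 bp without a region. A gap of that length was reached by 26.8% of the 1997 gaps in the list. This stretch takes in the unnamed genes of the cluster, Hoxa9 to Hoxa2, and is not flanking sequence alone. On the other side, towards Evx1, the next region was 5100 bp away, and 10 regions lay within 100000 bp.

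HoxC resembled HoxA in that the run of regions stopped within the cluster. Its 13 regions lay in 63919 bp of chromosome 15 (chr15:102747544-102811463) and covered 43.7% of it, and the next region on the side of Hoxc8 was 158872 bp away. Hoxc11, a gene of the sacral segments, had the most sequence in regions, 11321 bp in 4 regions with 622 ChIP and 60 input tags (10.4, 7.95 to 13.7). All 4 lay outside the gene, the nearest 62 bp from it. Hoxc11 was named by the longest Hox region, chr15:102774227-102780538, of 6311 bp with 347 and 37 tags, ranked 17 in the list. That region lay 4419 bp from Hoxc11. Hoxc12 had the highest density of the cluster, 66.0 ChIP tags per kb, with 325 and 29 tags (11.2, 7.66 to 17.0) in 2 regions of 4925 bp, of which 1 held 242 and 18 tags and was ranked 20. Hoxc10 had 5 regions with 490 and 36 tags, the highest ratio among genes with over 10 input tags (13.6, 9.70 to 19.7). Hoxc13, a gene of hair and nail, had 217 and 18 tags (12.1), and Hoxc9, a thoracic gene, 265 and 24 (11.0).

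In HoxC 3 regions named 2 genes each. The region of Hoxc9 and Hoxc10 held 197 ChIP and 10 input tags (19.7, 10.5 to 41.7), that of Hoxc10 and Hoxc11 51 and 7 (7.29), and that of Hoxc12 and Hoxc13 83 and 11 (7.55). Of the 49 Hox regions, 41 had an interval that included the ratio of all regions (7.47), 2 lay below it and 6 above it. Among 49 intervals some can fall outside by counting error alone. Of the 6 above, 4 were in HoxC: those of Hoxc9 and Hoxc10, of Hoxc11 (101 and 6 tags, with a lower limit that also rounds to 7.47), of Hoxc12 (242 and 18) and of Hoxc13 (83 and 4). The other 2 above it were a region of Hoxb1 (93 and 4 tags) and the region of Hoxd11 and Hoxd12 (58 and 2).

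HoxD was named from Hoxd13 to Hoxd1, by 16 regions over 106913 bp of chromosome 2 (chr2:74501224-74608137) that covered 26.1% of the span. No region overlapped either end gene, and the nearest lay 4188 bp from Hoxd13 and 4433 bp from Hoxd1. Of the 9 HoxD genes, 5 had a region that overlapped the gene. More regions of HoxD named several genes than in the other clusters, 9 of 16 against 4 of 8 in HoxA, 3 of 13 in HoxC and 2 of 12 in HoxB. Hoxd3, which acts at the base of the skull, had the most sequence in regions of any Hox gene, 11633 bp in 6 regions with 620 ChIP and 77 input tags (8.05, 6.35 to 10.3), and 5 of the 6 overlapped its annotated span, within which both regions shared with Hoxd4 also lay. Hoxd1, expressed in pain-sensing neurons, had the highest density of any Hox gene, 75.2 ChIP tags per kb, in 1 region of 505 bp with 38 and 1 tags. That region lay 4433 bp from Hoxd1 and its ratio of 38.0 had an interval from 6.42 to 1540.

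Hoxd10, which specifies lumbar motor neurons, had the lowest ratio, 4.95 (3.69 to 6.73), from 272 ChIP and 55 input tags in 3 regions of 5852 bp. One of the regions, chr2:74529465-74531391, spanned the 5′ end of Hoxd10 with 87 and 24 tags, a ratio of 3.63 (2.28 to 5.96), the lowest of the 49. Hoxd9, named by the same 3 regions and by 1 more, had 383 and 64 tags (5.98, 4.58 to 7.93). At the posterior end 1 region of 2989 bp, chr2:74514254-74517243, named Hoxd11, Hoxd12 and Hoxd13 and held 146 and 17 tags (8.59, 5.18 to 15.1). It was the only region of the 49 that named 3 members. That count leaves out genes other than Hox genes, and both regions of Hoxd3 and Hoxd4, for example, also named Mir10b. Over the list, 3.5% of regions that named a gene named 3 or more genes of any kind, which is an unlike count.

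The remaining shared regions of HoxD joined neighbours along the cluster. The region of Hoxd11 and Hoxd12 held 58 ChIP and 2 input tags, and those of Hoxd9 and Hoxd10 beyond the 5′ end 119 and 19 and 66 and 12 tags. The region of Hoxd8 and Hoxd9 held 111 and 9 tags, and that of Hoxd3 and Hoxd8 73 and 6. The regions of Hoxd3 and Hoxd4 held 116 and 10 tags and 83 and 17 tags. Hoxd13 and Hoxd12, which pattern the digits, had totals of 197 and 19 tags (10.4) and 204 and 19 (10.7), Hoxd11 369 and 44 (8.39), Hoxd8 184 and 15 (12.3) and Hoxd4 199 and 27 (7.37). Only the Hoxd10 interval, among these genes and Hoxd9, lay wholly below 7.47.

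HoxB had the smallest share of its span in listed regions, and that span takes in the long stretch between Hoxb13 and Hoxb9. Its 12 regions lay over 177308 bp of chromosome 11 (chr11:96053610-96230918), and the listed regions of that span, 6 of which named no Hox gene, covered 17.3% of it. Hoxb13, at a distance from the rest of the cluster and known from prostate and tail, had the most sequence in regions, 7349 bp in 4 regions with 397 ChIP and 47 input tags (8.45, 6.23 to 11.7), the nearest 483 bp from its 5′ end. Hoxb5, a gene of the chest level that also acts in gut neurons, had the highest density, 59.8 ChIP tags per kb, in 1 region of 569 bp with 34 and 2 tags (17.0, 4.36 to 146). That region lay 62 bp from the 5′ end of Hoxb5 and also named Hoxb6, which had 102 and 16 tags in all (6.38). The region of Hoxb8 and Hoxb9 held 147 and 25 tags (5.88, 3.83 to 9.38) and lay 3960 bp from Hoxb8.

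The other named HoxB genes were Hoxb9, Hoxb4, Hoxb3 and Hoxb1. Hoxb9, which acts in sternal ribs, had 186 ChIP and 29 input tags (6.41, 4.32 to 9.84) in 2 regions. Hoxb4 had 30 and 3 tags in a region 4840 bp away, and Hoxb3 69 and 6 tags in a region within the gene but 13582 bp from its nearest 5′ end. Hoxb1, a hindbrain gene, had 2 regions that overlapped the gene, with 93 and 4 tags (23.2, 8.78 to 87.1) and 76 and 20 tags (3.80, 2.30 to 6.57), whose intervals do not overlap, and the nearer lay 9 bp from its 5′ end.

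**Figure D4:**
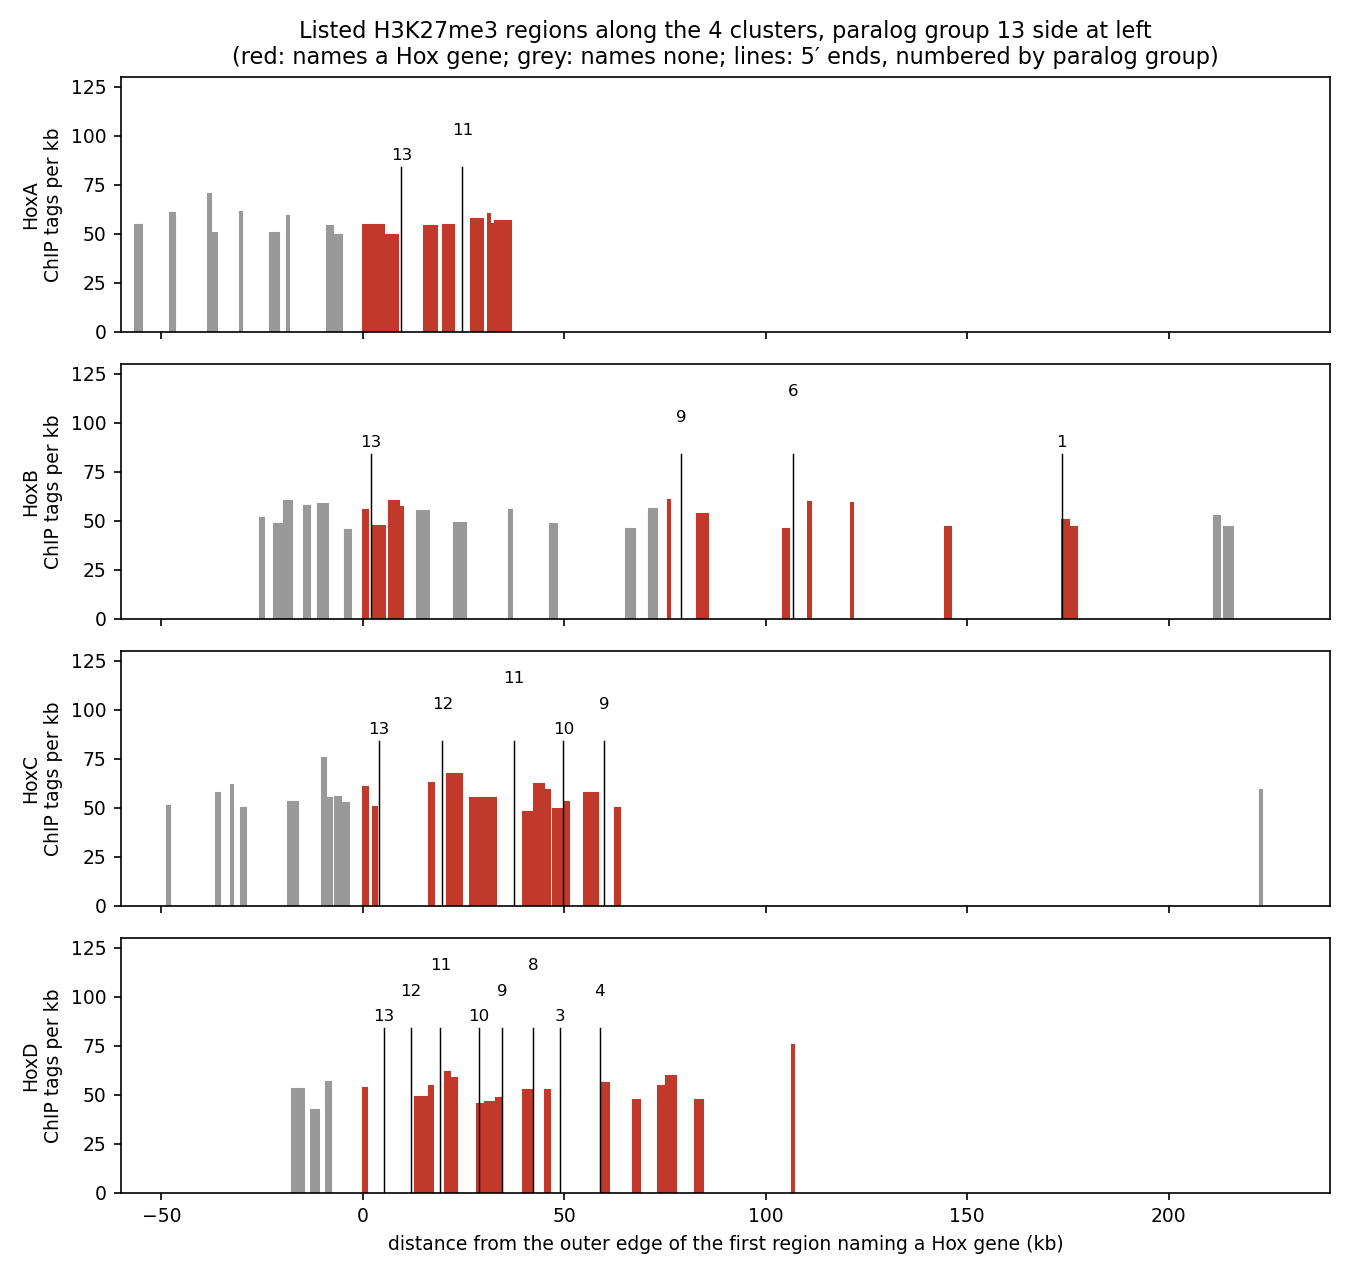
Listed regions along each cluster (horizontal axis, kb from the outer edge of the Hox region nearest the paralog group 13 end), drawn with that end on the left and with bar height as ChIP tags per kb. Red bars named a Hox gene of the set and grey bars did not, numbered lines mark those 5′ ends that the listed distances placed, and the red bars of HoxA and HoxC end within 36875 and 63919 bp while those of HoxD and HoxB run over 106913 and 177308 bp.

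Most Hox regions did not span a 5′ end, which also held for the list as a whole. Of the 49 regions, 21 (42.9%, 28.8 to 57.8) overlapped a Hox gene they named, against 65.5% of all regions that named a gene, and 3 (6.12%) spanned a 5′ end against 7.17%. Within 1000 bp of a 5′ end lay 14 (28.6%) against 23.9%, and within 2500 bp 28 (57.1%, 42.2 to 71.2) against 45%. These shares are not counted alike: the Hox regions were set against Hox genes only, and all regions against the nearest named gene of any kind. The region over Mir196a-2, for example, counts here as overlapping no gene and spanning no 5′ end. Of the 25 named genes, 14 had a region that overlapped the gene, where 2.53% of protein-coding genes had one. A region within 2500 bp of a 5′ end was found for 19, against 2.2%. Regions that named 2 or more Hox genes made up 18 of 49 (36.7%), and 15.9% of all regions that named a gene named 2 or more genes of any kind.

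Beyond the outermost Hox regions, the sides of the clusters differed. On the side of the low paralog numbers no region lay within 100000 bp in HoxA, HoxC and HoxD, and 4 lay there in HoxB. In HoxA and HoxC this side takes in the unnamed genes of the cluster, so its count is not one of flanking sequence alone. On the side of paralog group 13 there were 10 in HoxA, 10 in HoxC, 7 in HoxB and 3 in HoxD, the nearest 3057 to 7869 bp from the outermost Hox region. The next region beyond Hoxd1 was 161512 bp away, which 35.6% of the gaps in the list reached. Over the list the median gap between neighbouring regions was 22953 bp.

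The counts of the gene lists below stand beside the 3.9% of protein-coding genes named in the whole list. Of 15 ParaHox and Hox-linked homeobox genes 12 were named, all but Cdx4, Gsx1 and Meox2. Evx1 and Evx2, which lie beyond Hoxa13 and Hoxd13, had 129 ChIP and 21 input tags (6.14) and 213 and 14 tags (15.2, 8.87 to 28.3), and Evx2 shares a region with Hoxd13. Cdx2, an activator of Hox genes in the embryo, had 345 and 37 tags (9.32), and En1 182 and 8 (22.8, 11.3 to 53.5). Of 9 Pbx, Meis and Pknox genes, whose proteins are the cofactors of Hox proteins, 0 were named, which is near the 3.9% for a list of this size.

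Among 11 genes that set Hox domains along the body axis, 5 were named (45.5%, against 3.9% of protein-coding genes). These were Cyp26a1 and Cyp26c1, which break down retinoic acid, Aldh1a2, which makes it, and the tail-bud genes T and Wnt3a. Cyp26c1 had 361 ChIP and 31 input tags (11.6) and Cyp26a1 140 and 9 (15.6). Of 20 subunits of PRC2 and PRC1, the complexes that place and read H3K27me3, Cbx2 (31 and 8 tags) and Cbx8 (166 and 20) were named (2 of 20). Of 21 transcripts inside or beside the clusters, which were listed for their position near Hox genes and are in part not protein-coding, 9 were named: the 5 miRNA genes, Hoxa11as, 1700109F18Rik, Skap1 and Ttll6.

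Of 16 chondrocyte markers, Sox9, Col2a1 and Acan among them, 0 were named by a region, a count near the 3.9% of all protein-coding genes. Among markers of hypertrophic chondrocytes 1 of 5 was named (Ihh, 63 ChIP and 16 input tags). In other lists 2 of 5 skeletal muscle genes (Pax3, Pax7), and 0 of 3 osteoblast, 0 of 3 tendon, 0 of 4 blood and 0 of 3 endothelial genes were named, and a count of 0 in lists this short is also near 3.9%. How other cell types in the culture bear on the Hox regions was not tested.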

How the data were processed

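H3K27me3 ChIP-seq of pooled rib chondrocytes was analysed from the deposited list of regions (1 ChIP and 1 input library). The authors mapped the reads to mm9 with the DNAnexus mapper and called regions with QuEST against input. Versions and settings are not given in the sources used here. The deposited counts are whole ChIP and input tags in each region, without normalization. The deposited ratio (tag enrichment) divides the first by the second, but never by less than 9.21 input tags per kb, a floor found from the values and used in 1552 regions, 40 of the 49 Hox regions among them. The deposited signal height is the top of the smoothed profile, and the q-values were deposited as −log10. Positions are printed as listed, with counting from 0 or from 1 left unstated by the list.

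Genes were matched by the listed symbol, and 912 of 922 names matched RefSeq. Ratios printed here are ChIP over input tags without a floor, with 95% Clopper-Pearson intervals. The interval was tested on simulated data. The total depth is unknown, and 1 library of each kind allows no test between groups. Intervals cover counting error only. Described in full were, per cluster, the gene with the most bp in regions and that with the highest ChIP tags per kb, genes with a region across a 5′ end, and regions naming 2 or more Hox genes. The members, taken by symbol, and the gene lists were chosen with earlier results of these data known. The result of 1 marker list is not reported here. Alternatives were the overlap with the gene, distance limits, a height of at least 10, at least 50 ChIP tags, merging within 3000 bp and the nearest gene only. Scripts ran in Python 3.11.15 with scipy 1.17.1 for intervals, pandas 2.3.3 and numpy 2.4.6 for tables, and matplotlib 3.10.9 for plots.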

Additional observations from a re-analysis of the deposited data

How the results depend on the processing

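With at least 50 ChIP tags per region, or with the nearest gene only, the counts of genes stayed within 1.5 times those reported (22 and 24 genes in all). Where a region had to overlap the gene, 14 Hox genes were named, 4 in HoxB, 3 in HoxC and 5 in HoxD, with 1 in groups 4 to 8, by 21 regions, 4 in HoxA, 5 in HoxB, 3 in HoxC and 9 in HoxD, and the ratio over all was 7.45. Within 2500 bp of a 5′ end, HoxB had 4 genes and groups 1 to 3 had 2, and there were 28 regions, 6 in HoxB, 7 in HoxC and 9 in HoxD. With a height of at least 10, 12 genes were named, 2 in HoxA, 3 in HoxB, 4 in HoxC and 3 in HoxD. Groups 1 to 3 had 2 of them, groups 4 to 8 had 1 and groups 9 to 13 had 9. The order of the clusters thus did not hold at this height, with 4 of 9 genes in HoxC and 3 of 9 in HoxD. These 12 genes rested on 10 regions, 1 in HoxA and 3 each in HoxB, HoxC and HoxD, with ratios of 10.3 over all, 14.8 in HoxC and 11.0 in HoxD. Merging regions within 3000 bp left 27 regions, 3 in HoxA, 6 in HoxC and 10 in HoxD. The median ratio over the Hox regions was 9.75 without the floor and 5.91 as deposited, a difference made by the floor. The share near a 5′ end fell from 57.1% to 28.6% when the limit was 1000 bp. Groups 9 to 13 had 9 to 15 of 16 genes named under the alternatives, and groups 1 to 8 had 3 to 9 of 22. Of 87 recomputed values, 50 stayed close to the reported value.

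No paired analysis was possible because there was 1 library of each kind, and for the same reason none was left out in turn. Genes with 1 to 4 input tags, such as Hoxd1, Hoxb5 and Hoxb4, have wide intervals, and this depth does not settle their rank by ratio.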

Other observations

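Between Hoxb13 and Hoxb9, 6 listed regions named no Hox gene, and 5 of them named no gene. They held 634 ChIP and 80 input tags (7.93, 6.27 to 10.1), beside the 12 regions of HoxB (7.62, 6.32 to 9.26).

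Beyond Hoxc13, 10 regions lay within 100000 bp, and 10 of the 10 named no gene. They held 684 ChIP and 61 input tags, a ratio of 11.2 (8.62 to 14.8), beside 11.4 (9.60 to 13.7) in the regions of HoxC itself. The 10 regions beyond Hoxa13 had 616 and 93 tags (6.62, 5.32 to 8.33), and 2 of them named a gene.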
